A study of Mus musculus with 3 samples.

Results

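The 8 genes described here encode proteins that take up, export, store or make cholesterol: Npc1l1, Abcg5, Abcg8, Soat2, Abca1, Scarb1, Hmgcs1 and Sqle. They were chosen by symbol out of 31053 genes counted in single cells of the mouse small intestine, and all 8 were counted in each of the 3 libraries. Their levels are given by cell class, by position along the villus and by intestinal segment. One library per segment (duodenum, jejunum, ileum) was made from wild-type C57BL/6N mice, with the cells of 3 males of 12 weeks pooled before sorting. The labels name no treatment. The sample titles carry the letters CD, which the labels do not explain. The study's methods describe a normal chow diet for its animals. Cells that excluded propidium iodide were sorted as live, and they held epithelial cells together with the immune cells of the epithelium.

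Free cholesterol from bile and diet enters an enterocyte through NPC1L1 in its brush border membrane. ABCG5 and ABCG8 pair to form the sterol exporter that returns cholesterol and plant sterols to the lumen, SOAT2 (also ACAT2) makes the cholesteryl esters packed into chylomicrons, and ABCA1 passes cholesterol to apolipoprotein A-I at the basolateral side. SCARB1 is the HDL receptor SR-BI, which also sits in the intestinal brush border. HMGCS1 and SQLE are enzymes of cholesterol synthesis, an early and a later step of the mevalonate and sterol pathway. Synthesis genes are known targets of SREBP2, which is active when sterol in the endoplasmic reticulum is low, and Abca1, Abcg5 and Abcg8 are known targets of the sterol sensor LXR.

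In the GENCODE M21 annotation of GRCm38, Abcg5 (ENSMUSG00000040505, minus strand, chr17:84658234-84683011) and Abcg8 (ENSMUSG00000024254, plus strand, chr17:84676302-84700333) stand head to head and overlap. The strand setting of the counting is not given in the sources used here, so some UMIs of one could have been counted for the other. Npc1l1 (ENSMUSG00000020447) lies at chr11:6211013-6230143 on the minus strand, Soat2 (ENSMUSG00000023045) at chr15:102150526-102163469 on the plus strand, Abca1 (ENSMUSG00000015243) at chr4:53030787-53159895 on the minus strand and Scarb1 (ENSMUSG00000037936) at chr5:125277087-125341094 on the minus strand. The synthesis genes Hmgcs1 (ENSMUSG00000093930, chr13:119690379-119708260) and Sqle (ENSMUSG00000022351, chr15:59315077-59331192) lie on plus strands. RefSeq promoter windows of GRCm38.p6, from 250 bases before the start of transcription to 50 after it, were at hand for 5 of the 8 genes.

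The windows of Abcg5 and Abcg8 are shown because the pair had similar levels along the villus, and because the windows share sequence. Capitals mark the 209 bases (chr17:84682962-84683170) that lie in both windows, read on opposite strands.
Abcg5 (chr17:84682962-84683261, minus strand): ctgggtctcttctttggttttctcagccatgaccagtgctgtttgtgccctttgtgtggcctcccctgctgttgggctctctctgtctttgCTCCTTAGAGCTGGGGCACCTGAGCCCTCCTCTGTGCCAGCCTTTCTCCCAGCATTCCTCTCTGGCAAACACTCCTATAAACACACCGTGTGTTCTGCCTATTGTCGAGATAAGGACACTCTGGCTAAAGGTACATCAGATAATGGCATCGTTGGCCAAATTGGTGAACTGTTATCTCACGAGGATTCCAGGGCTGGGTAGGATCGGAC
Abcg8 (chr17:84682871-84683170, plus strand): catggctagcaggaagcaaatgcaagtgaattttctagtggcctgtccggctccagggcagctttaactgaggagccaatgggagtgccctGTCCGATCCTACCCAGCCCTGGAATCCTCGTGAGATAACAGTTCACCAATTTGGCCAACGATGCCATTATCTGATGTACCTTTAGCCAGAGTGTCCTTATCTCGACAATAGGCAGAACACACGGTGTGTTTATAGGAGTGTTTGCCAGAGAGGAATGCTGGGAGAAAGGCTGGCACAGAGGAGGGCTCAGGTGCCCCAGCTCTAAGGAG

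The window of Hmgcs1 is shown because it was the only one of the 8 genes' windows with a match to the sterol element TCACNCCAC, where N is any base. Both strands were searched for that element (GTGGNGTGA on the other strand) and for CCAAT, which reads ATTGG on the other strand. The matches do not overlap here, and capitals mark each of them.
Hmgcs1 (chr13:119690101-119690400, plus strand): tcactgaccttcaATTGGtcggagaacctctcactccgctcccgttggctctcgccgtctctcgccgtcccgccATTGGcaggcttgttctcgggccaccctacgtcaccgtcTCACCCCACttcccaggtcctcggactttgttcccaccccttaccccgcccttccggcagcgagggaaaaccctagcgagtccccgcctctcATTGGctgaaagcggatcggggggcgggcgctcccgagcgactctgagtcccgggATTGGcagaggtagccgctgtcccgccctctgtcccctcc

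The sterol element was found at base 114 of the Hmgcs1 window, as TCACCCCAC. It occurred in 408 of all 32851 promoter windows (1.24%), and CCAAT occurred in 12289 of them (37.4%). Hmgcs1 held 4 matches to CCAAT, all as ATTGG. A second Abcg8 window, upstream, held no match. A match is a description of letters, not evidence that a factor binds there.

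After filtering, 16686 of 27235 barcodes were kept, with 4255 duodenal, 4360 jejunal and 8071 ileal cells. Median depth was 12424, 11737 and 5536 UMIs per cell, and the median share of mitochondrial UMIs was 27.1, 27.2 and 11.1%, so the ileum stood apart from the other libraries in depth and in mitochondrial RNA. The clusters gave 11550 enterocytes, 1122 early enterocytes, 226 ISC/proliferating cells (stem cells and their dividing offspring), 748 goblet, 302 tuft and 170 enteroendocrine cells (EECs), 1232 T cells and smaller immune classes, while 402 cells stayed unnamed. Of the 13 enterocyte markers, 12 were higher in enterocytes than in the other cells, and in goblet, tuft, EEC and T cell clusters the 13 together lay at a median of 9.74, 12.1, 13.9 and 8.81% of their enterocyte level, none of them at 0 when the libraries were summed. These percentages are the yardstick for RNA from other cells below. In all, 21 kept barcodes occurred in more than 1 library.

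Npc1l1, Abcg5, Abcg8 and Soat2 were higher in enterocytes than in ISC/proliferating cells, goblet cells, tuft cells, EECs and T cells. Each of these calls held in all 17 alternatives of the processing. Of the 8 genes Npc1l1 had the highest level in enterocytes, at 4.74, 7.58 and 9.10 UMIs per 10000 UMIs from duodenum to ileum. Abcg5 lay at 2.48, 1.38 and 1.40, Abcg8 at 2.03, 1.30 and 1.09, and Soat2 at 0.801, 1.80 and 1.19 in the same order of segments. These are 3′ tag counts, which do not scale with transcript length, so the ranks between genes compare molecules counted. Npc1l1 had at least 1 UMI in 91.8% of enterocytes and in 15.8% of T cells, at median depths of 9152 and 4262 UMIs. With every cell thinned to 2000 UMIs, the shares were 67.9 and 8.82%. In T cells the enterocyte markers lay at a median of 8.81% of their enterocyte level. The part of RNA from other cells in the T cell share was not tested.

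**Figure D1:**
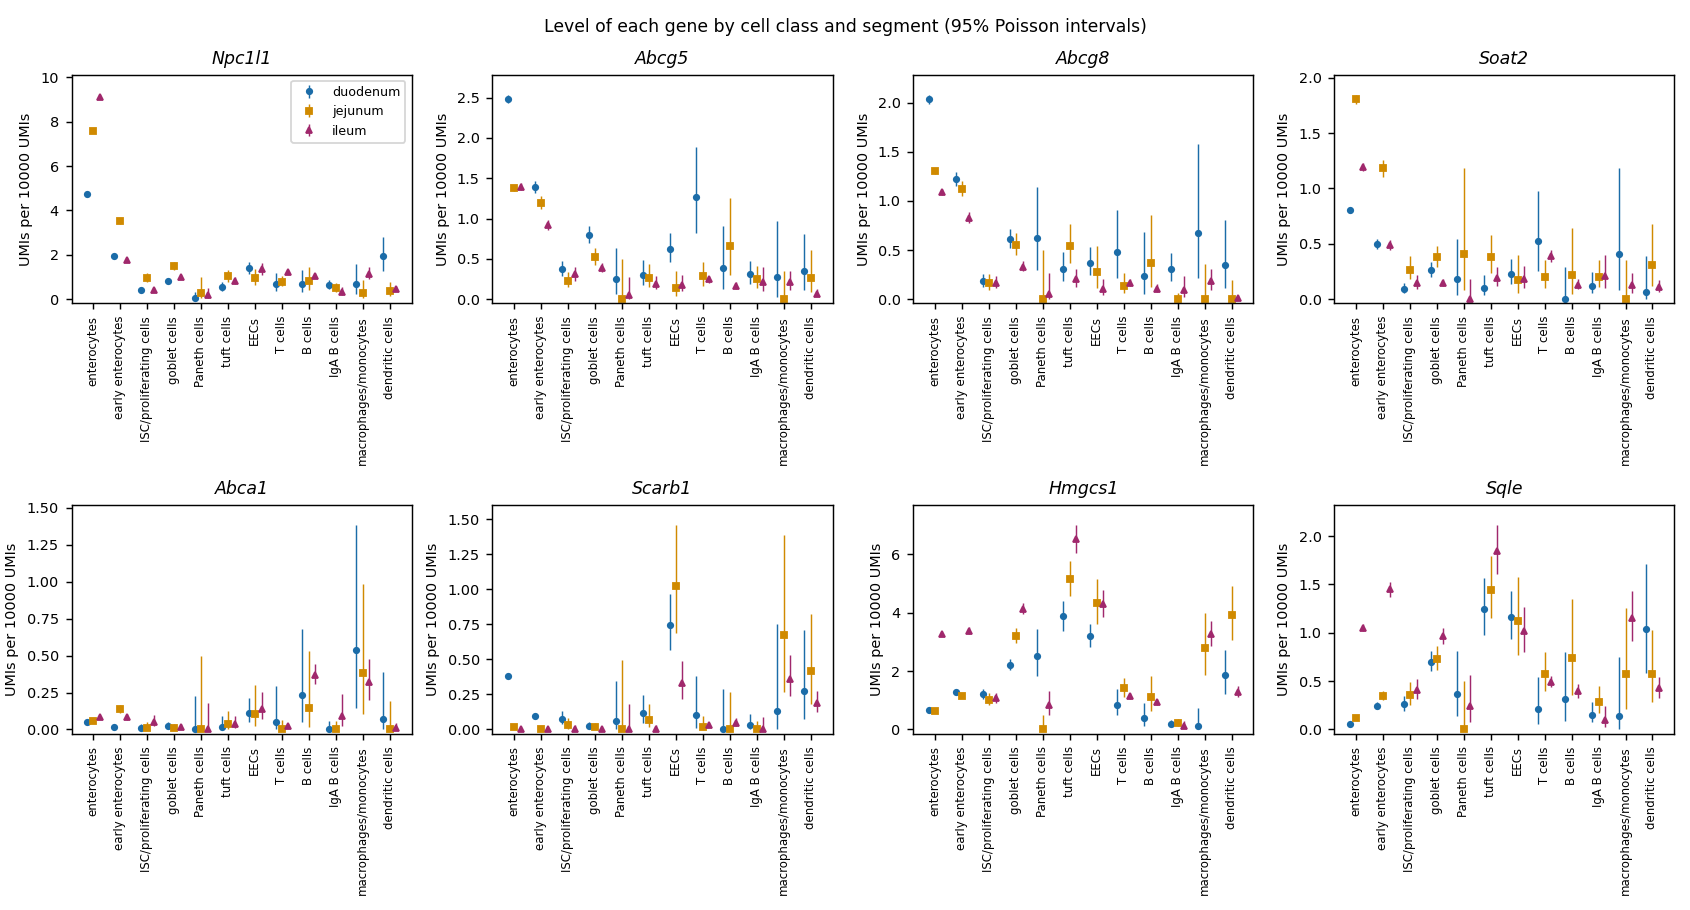
Level of each of the 8 genes (UMIs per 10000 UMIs, linear axis) by cell class, with 1 point per library and bars for exact Poisson intervals of 95%, which hold counting error alone. Npc1l1, Abcg5, Abcg8 and Soat2 are highest in enterocytes, whereas Hmgcs1 and Sqle of tuft cells lie above those of enterocytes in each library, at 3.87, 5.16 and 6.51 for Hmgcs1.

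Against ISC/proliferating cells, Npc1l1 was 4.40 higher on the log2 scale (SE 0.48, adjusted p = 5.53e-09). Its level in the crypt class was 0.425, 0.966 and 0.404 UMIs per 10000 in the duodenum, jejunum and ileum, below the enterocyte level of each library. The 13 enterocyte markers lay at a median of 5.61% of their enterocyte level in that class (4.17 to 29.8%). The part of RNA from other cells in its Npc1l1 level was not tested. Abcg8 was higher by 3.84 (SE 0.44), Soat2 by 3.73 (SE 0.38), Abcg5 by 3.25 (SE 0.34) and Abca1 by 2.21 (SE 0.63, adjusted p = 0.00325). The crypt level of Abca1 rested on 2, 1 and 8 UMIs in the duodenum, jejunum and ileum. Its log2 ratio on total UMIs had a counting interval above 0 in the duodenum (0.36 to 5.28) and jejunum (0.07 to 7.87). The ileal ratio of 0.79 had an interval of -0.21 to 2.01, which leaves its direction open. Hmgcs1 was called higher too, by 0.94 (SE 0.40, adjusted p = 0.0424), yet only in the ileum was its level higher in enterocytes. That call held in 11 of 17 alternatives, and without the ileum the difference was -0.18. In all 6 of the 8 genes were higher and 0 lower, where 31.0% of the 12878 genes tested were higher and 30.7% lower. Scarb1 (1.71, adjusted p = 0.186) and Sqle (0.56, adjusted p = 0.409) did not pass.

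Early enterocytes, the younger absorptive cells, already carried these RNAs. Npc1l1 stood at 1.93, 3.53 and 1.77 UMIs per 10000 in early enterocytes of the 3 segments and was 1.87 higher on the log2 scale in enterocytes (SE 0.42, adjusted p = 0.000791). Soat2 was 1.16 higher (SE 0.31, adjusted p = 0.00413). Abcg5 was 0.84 higher (SE 0.30, adjusted p = 0.0254). That call held in 11 of 17 alternatives and ended, among others, without the duodenum (0.74) and without the ileum (0.75). These 3 genes were higher and 0 lower in a comparison that called 19.7% of genes higher and 17.9% lower. Scarb1 (1.96, adjusted p = 0.0678), Abcg8 (0.75, adjusted p = 0.107), Abca1 (0.11), Hmgcs1 (-0.17) and Sqle (-0.63) did not pass. The early cells were deeper, with a median of 23593 UMIs against 9152, and the part of depth in these differences was not tested.

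Goblet cells, which secrete mucus, had a larger share of the enterocyte level for the sterol exporter than for Npc1l1 in each library. Summed over libraries, Abcg5 in goblet cells was 30.1% and Abcg8 30.4% of the enterocyte level, while Npc1l1 was 14.8% and Soat2 17.3%. In the duodenum Soat2, at 32.7%, was beside Abcg5 (32.1%) and Abcg8 (29.9%). The 13 enterocyte markers lay between 6.39 and 18.9% in the summed libraries, below Abcg5 and Abcg8, but their highest reached 41.8% in the duodenum and 301% in the jejunum, so that order does not hold against all 13 within those libraries. Abcg5 in goblet cells was 0.798, 0.517 and 0.390 UMIs per 10000 from duodenum to ileum, below the enterocytes of each segment. Between enterocytes and goblet cells Npc1l1 differed by 2.73 (SE 0.44), Soat2 by 2.30 (SE 0.34), Abca1 by 1.90 (SE 0.59), Abcg5 by 1.65 (SE 0.31) and Abcg8 by 1.59 (SE 0.38, adjusted p = 0.0012), all higher in enterocytes. For Abca1 that call held in 14 of 17 alternatives and ended, among others, without the ileum (1.53). In this comparison 5 of the 8 were higher and 2 lower, against 20.5% and 16.6% of all genes.

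Tuft cells are chemosensory cells of the epithelium. Npc1l1 was 3.75 lower in them than in enterocytes on the log2 scale (SE 0.47), Abcg5 3.36 (SE 0.37), Soat2 3.10 (SE 0.39) and Abcg8 2.68 (SE 0.43), and Abca1 was 1.77 lower with an adjusted p = 0.0493 that was lost in 12 of 17 alternatives. The background was 23.3% of genes higher in enterocytes and 21.6% lower, and 5 and 2 of the 8 were called. In EECs, the hormone cells, Abcg8 was 3.46 lower than in enterocytes, Soat2 3.33, Npc1l1 3.29 and Abcg5 3.28, each with an SE of at most 0.47. That comparison called 25.8% of genes higher and 26.8% lower, and 4 and 1 of the 8. T cells differed from enterocytes by 3.77 for Npc1l1, 3.52 for Abcg8, 2.82 for Abcg5, 2.75 for Abca1 and 2.59 for Soat2, all lower in T cells, and Hmgcs1 was called too, by 1.09 (adjusted p = 0.0247), though it was higher in enterocytes in the ileum alone. The Hmgcs1 call held in 12 of 17 alternatives, and without the ileum its difference was -0.04. Without the ileum the Abca1 call was lost at a larger difference (3.03). Abcg5 in the 35 duodenal T cells stood out, at 1.27 UMIs per 10000 from 24 UMIs, where the enterocyte markers of that sum lay at a median of 25.5% of the enterocyte level. Their part in that value was not tested. Here 6 were higher and 0 lower, where 31.6% and 29.6% of all genes were.

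Scarb1 was higher in EECs than in enterocytes. Duodenal EECs had 0.747 UMIs per 10000 (95% interval 0.569 to 0.964, 59 UMIs), jejunal EECs 1.02 (0.689 to 1.46, 30 UMIs) and ileal EECs 0.335 (0.219 to 0.490, 26 UMIs). Duodenal enterocytes had 0.383 (0.365 to 0.403), jejunal ones 0.0179 (0.0142 to 0.0222) and ileal ones 0.000831 (0.000171 to 0.00243, 3 UMIs). EECs were therefore above enterocytes in each library, and the ileal enterocyte level among them rests on 3 UMIs. The difference was -3.20 on the log2 scale for enterocytes minus EECs (SE 0.89, adjusted p = 0.00336), and it lost its call without the jejunum (-1.98) and without the library block (-1.60). A Scarb1 UMI was seen in 24.1% of EECs and 1.54% of T cells, at median depths of 6176 and 4262 UMIs, and in 10.8 and 0.333% after thinning.

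Abca1 was scarce in every class. Enterocytes held 0.0516, 0.0563 and 0.0845 UMIs per 10000 in the 3 segments. Summed over the libraries, macrophages/monocytes had 0.345 (0.235 to 0.490, 31 UMIs) and B cells 0.355 (0.294 to 0.425, 118 UMIs), of which 113 UMIs came from the ileum. Their intervals lay above the enterocyte levels of every segment. Abca1 of EECs did not differ detectably from that of enterocytes (-0.14, SE 0.57), so no direction can be read for it.

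The synthesis genes had another order of classes, with tuft cells at the top. Hmgcs1 stood at 3.87, 5.16 and 6.51 UMIs per 10000 in tuft cells of the duodenum, jejunum and ileum, at 3.19, 4.32 and 4.30 in EECs, at 2.21, 3.21 and 4.14 in goblet cells and at 0.656, 0.622 and 3.26 in enterocytes. Every library had enterocytes lowest of these 4 classes for Hmgcs1. Sqle, the enzyme that oxidises squalene, was 1.25, 1.45 and 1.85 in tuft cells, 0.699, 0.732 and 0.964 in goblet cells and 0.0593, 0.118 and 1.05 in enterocytes. In the ileum the Sqle intervals of enterocytes (1.02 to 1.09) and goblet cells (0.880 to 1.05) overlapped, while in the other segments enterocytes were clearly lower.

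Enterocytes were lower than tuft cells by 1.38 for Hmgcs1 (log2 -1.38, SE 0.39, adjusted p = 0.00477) and lower for Sqle as well (log2 -1.76, SE 0.55, adjusted p = 0.00981). Against goblet cells the differences were -1.25 (SE 0.39, adjusted p = 0.0119) for Hmgcs1 and -1.44 (SE 0.54, adjusted p = 0.0353) for Sqle. All 4 calls ended when the duodenum or the jejunum was left out, with differences of -0.70 to -1.19 that kept their direction. Of 17 alternatives, Hmgcs1 was called in 14 against tuft cells and in 13 against goblet cells. Sqle was called in 13 and 9 of them. EECs gave -0.81 (adjusted p = 0.0889) for Hmgcs1 and -1.18 (adjusted p = 0.0857) for Sqle, which did not pass. The share of cells with an Hmgcs1 UMI was 86.1% of tuft cells and 53.1% of enterocytes, and 61.8 and 22.0% at 2000 UMIs. ISC/proliferating cells had nearly the same Hmgcs1 level in each library, at 1.21, 1.02 and 1.07. That lay above the enterocytes of duodenum and jejunum and below those of the ileum.

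In the 3 class comparisons with 0 of the 8 lower, edgeR gave 0 lower at an unadjusted p under 0.05 as well, and DESeq2 called 0 lower. The class comparisons depended on the scale only in part. TMM set the median gene between 0.05 and 0.15 on the log2 scale, and with total UMIs alone it lay at -0.12 against early enterocytes, -0.66 against ISC/proliferating cells, -0.43 against tuft cells, -0.74 against EECs and -0.70 against T cells. Higher calls then made up 31.6, 28.3, 28.1, 22.0 and 29.8% of the calls in place of 52.3, 50.2, 52.0, 49.1 and 51.6%, and 38.4% against EECs with DESeq2. On total UMIs Hmgcs1 was not called against ISC/proliferating cells (0.23) or T cells (0.26), and Hmgcs1 (-1.55) and Sqle (-1.92) were called lower in enterocytes than in EECs.

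Villus position was inferred, not measured. Enterocytes and early enterocytes of each library, 12672 cells in all, were ordered by 9 genes known from the villus tip and 6 from its bottom, none of them among the genes described here, and cut into 5 zones of equal cell number, named zone 1 (bottom) to zone 5 (tip). Tip genes held out of the ordering went from 2.63 UMIs per 10000 in zone 1 to 11.4 in zone 5, and held-out bottom genes went from 42.2 to 2.89. Early enterocytes made up 41.5% of zone 1 and 0% of zone 5, and median depth went from 14074 to 8682 UMIs.

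**Figure D2:**
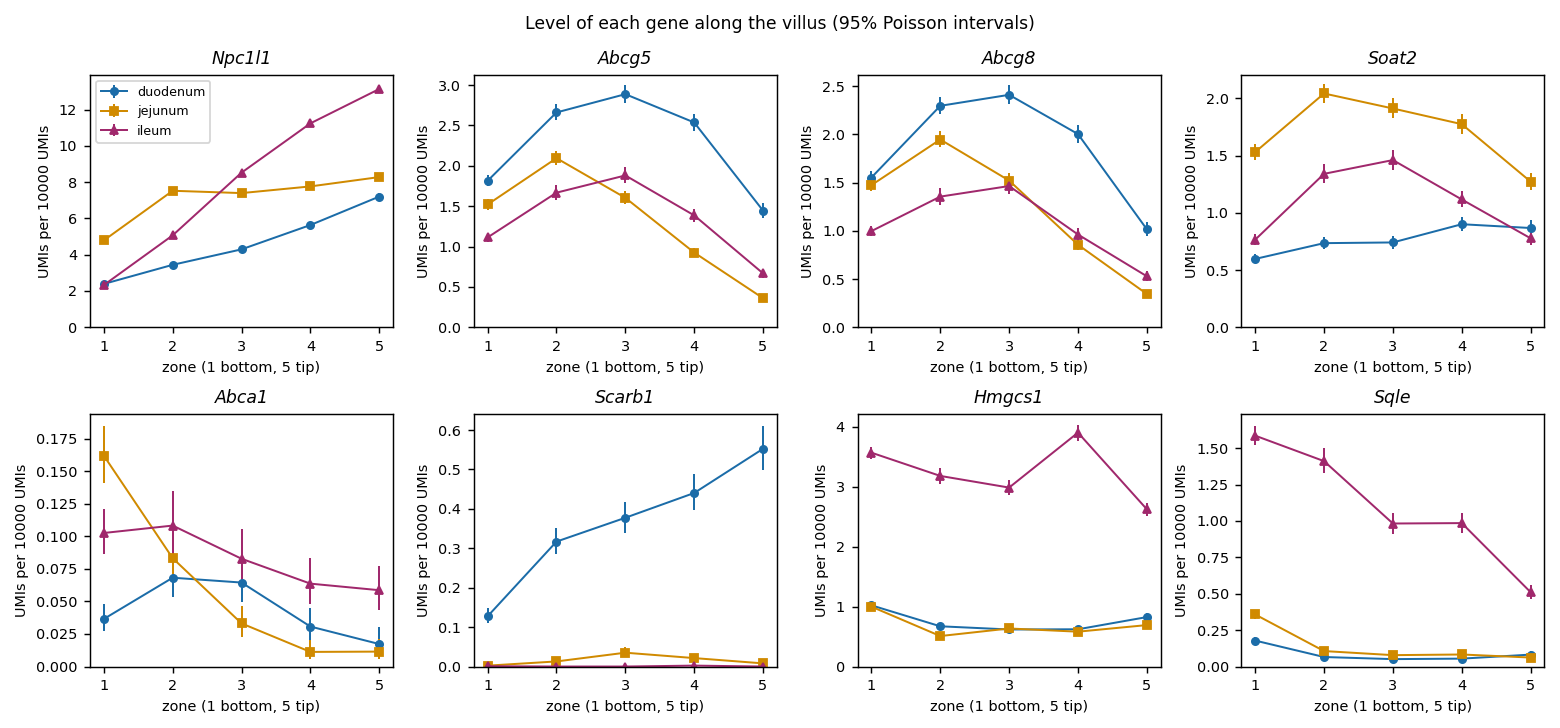
Level of each gene (UMIs per 10000 UMIs) in the 5 villus zones from bottom (1) to tip (5), 1 line per segment with exact Poisson intervals of 95%. Npc1l1 is higher at the tip than at the bottom in each segment, at most 13.1 in the ileum, while Abcg5 and Abcg8 peak in zone 2 or 3 and are lowest in zone 5.

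Npc1l1 climbed from the bottom to the tip of the villus. In the ileum it went through 2.32, 5.07, 8.52, 11.2 and 13.1 UMIs per 10000 over zones 1 to 5, and in the duodenum through 2.39, 3.44, 4.29, 5.64 and 7.20. The jejunum started higher, at 4.79, reached 7.52 in zone 2 and ended at 8.28. The tip was above the bottom in 3 of 3 libraries, by 2.20 on the log2 scale (SE 0.28, adjusted p = 1.89e-05). The middle was above the bottom by 1.22 (SE 0.28, adjusted p = 0.00328) and the tip above the middle by 0.98 (SE 0.27, adjusted p = 0.0125). The call of the tip above the middle held in 13 of 18 alternatives. It ended, among others, without the duodenum (0.92) and on total UMIs alone. Npc1l1 at the tip against the bottom was called in all 18 alternatives.

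The 2 subunits of the exporter had their peak lower down. Abcg5 over zones 1 to 5 was 1.81, 2.66, 2.89, 2.54 and 1.44 in the duodenum, 1.52, 2.09, 1.60, 0.925 and 0.360 in the jejunum. The ileal values were 1.11, 1.67, 1.88, 1.39 and 0.667. Abcg8 followed it, with 1.55, 2.30, 2.41, 2.00 and 1.02 in the duodenum, 1.47, 1.95, 1.52, 0.856 and 0.345 in the jejunum. In the ileum they were 0.997, 1.35, 1.46, 0.962 and 0.528. Both peaked in zone 3 in the duodenum and the ileum and in zone 2 in the jejunum, and both were lowest in zone 5 in each library. From the middle to the tip Abcg5 fell by 1.06 (SE 0.24, adjusted p = 0.0046) and Abcg8 fell by 1.14 (SE 0.21, adjusted p = 0.00123) on the log2 scale. These calls held in every alternative except the fit without the library block, 17 of 18.

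From the bottom to the middle Abcg5 was called higher by 0.64 (adjusted p = 0.0431) and Abcg8 by 0.56 (adjusted p = 0.0402). Each of these calls held in 9 of 18 alternatives. Both ended, among others, without the duodenum, without the ileum and when early enterocytes were left out. With early enterocytes left out the differences were 0.07 for Abcg5 and -0.00413 for Abcg8. At the tip against the bottom Abcg8 was lower by 0.58 (log2 -0.58, SE 0.21, adjusted p = 0.0244). That call held in 14 of 18 alternatives and was lost, among others, without the jejunum (-0.21). Abcg5 did not pass (-0.41, adjusted p = 0.146). Without TMM, which sets total UMIs as the only scale, Abcg5 at the tip was called lower as well (-1.01).

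The uptake gene and the export genes ran in opposite directions over the upper villus. Between zone 3 and zone 5 Npc1l1 went up and both exporter genes went down in 3 of 3 libraries. In the jejunum Npc1l1 was 7.39 and Abcg5 1.60 UMIs per 10000 in zone 3, and 8.28 and 0.360 in zone 5. The rise of Npc1l1 between these zones was called in 13 of 18 alternatives, and not on total UMIs alone.

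**Figure D3:**
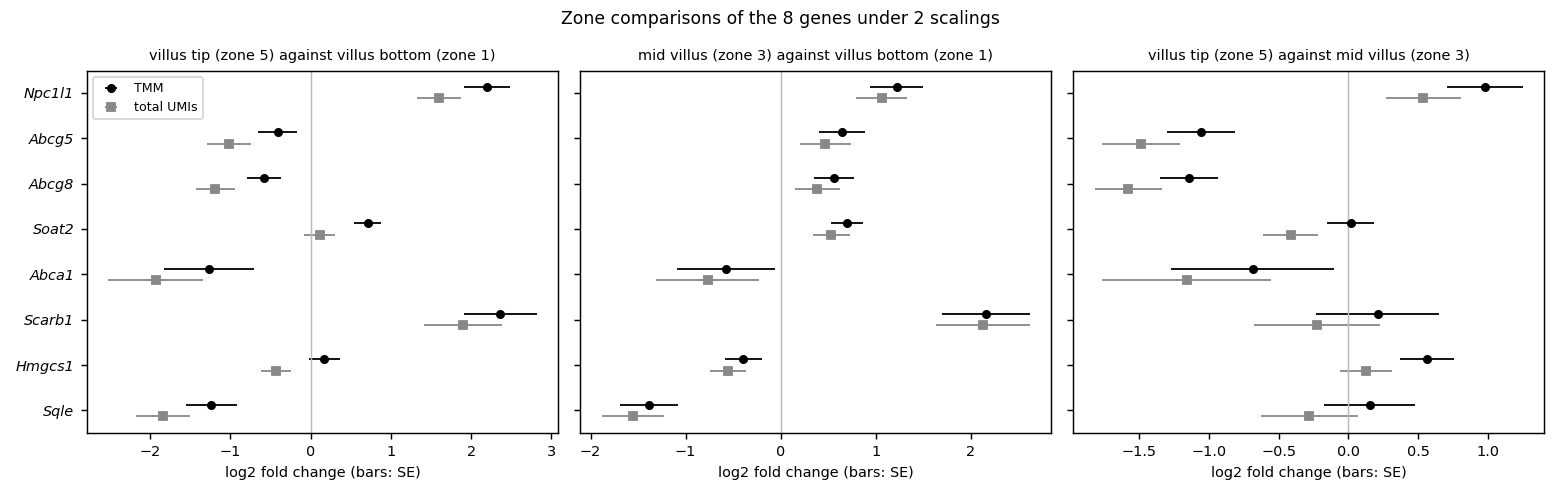
Log2 fold changes of the 8 genes between villus zones from edgeR, 1 panel per comparison, with bars of 1 SE, black points for TMM scaling and grey squares for total UMIs alone. With TMM, tip against bottom has Scarb1 (2.36) and Npc1l1 (2.20) to the right and Sqle (-1.24) and Abcg8 (-0.58) to the left of 0, and the grey squares lie further left.

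Soat2, the ester-forming enzyme, had a shallow profile that differed between segments. It went from 0.597 to 0.867 UMIs per 10000 over the duodenal zones, from 1.53 to a highest 2.04 in zone 2 and down to 1.27 in the jejunum, and from 0.765 to 1.46 in zone 3 and 0.777 at the tip of the ileum. The test gave 0.71 for the tip against the bottom (SE 0.17, adjusted p = 0.00211). That value shrank to 0.11 without TMM and to 0.10 with enterocytes only, so its size depended on the scaling and on the early enterocytes in zone 1. Soat2 in the middle against the bottom was 0.69 (adjusted p = 0.00485), higher in 3 of 3 libraries. That call held in 13 of 18 alternatives, with differences of 0.14 to 0.84, and was lost, among others, without the ileum (0.46).

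Scarb1 of the duodenum went up along the villus, through 0.127, 0.317, 0.377, 0.440 and 0.552 UMIs per 10000. In the jejunum it stayed between 0.00226 and 0.0351 and in the ileum the 5 zones held 3 UMIs in all. The tip was called higher than the bottom by 2.36 (SE 0.45, adjusted p = 0.000475) and the middle by 2.16 (SE 0.46, adjusted p = 0.00237). Without the duodenum the first difference was 1.93 and was not called, and with enterocytes only the second was 1.05 and was not called. The call thus depended on the duodenal library.

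Abca1 was highest at the bottom of the jejunal villus. It went through 0.162, 0.0831, 0.0331, 0.0112 and 0.0115 UMIs per 10000 in the jejunum, and from 0.103 to 0.0586 between the ends of the ileal villus. In the duodenum zones 2 and 3 were highest, at 0.0682 and 0.0645. Its tip to bottom difference of -1.26 (SE 0.56, adjusted p = 0.0608) did not pass, and it passed in 8 of 18 alternatives, among them the one without the ileum (-2.18).

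Sqle was a gene of the villus bottom. It fell from 1.59 to 0.510 UMIs per 10000 between zones 1 and 5 of the ileum, from 0.358 to 0.0619 in the jejunum, and from 0.178 to 0.0820 in the duodenum, where zone 3 was lowest at 0.0509. The tip was lower than the bottom by 1.24 (log2 -1.24, SE 0.32, adjusted p = 0.00366) and the middle lower by 1.39 (log2 -1.39, SE 0.31, adjusted p = 0.00285). These calls held in 15 and 16 of 18 alternatives, and both ended, among others, without the jejunum, at -0.88 and -1.07. Hmgcs1 had no call between tip and bottom (0.17, SE 0.19, adjusted p = 0.436), with 1.02 and 0.824 UMIs per 10000 in the duodenum, 0.998 and 0.691 in the jejunum and 3.56 and 2.62 in the ileum. It was called higher at the tip than in the middle by 0.56 (adjusted p = 0.0316), which became 0.13 without TMM and lost its call in 8 alternatives, among them those without the duodenum (0.47) and without the jejunum (0.53).

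Read against all 11259 genes tested, the tip against the bottom had 3 of the 8 higher and 2 lower, where 33.5% of all genes were higher and 37.0% lower. The middle against the bottom had 5 higher and 1 lower, with a background of 23.2% and 23.4%, and the tip against the middle had 2 higher and 2 lower, with 21.5% and 21.8%. TMM set the median gene near 0 in each of these comparisons (-0.08, 0.03 and -0.07), and with total UMIs alone the median gene moved to -0.69, -0.14 and -0.51. Higher calls then made up 25.8, 36.8 and 17.3% of the calls instead of 47.5, 49.8 and 49.7%. On that scale Npc1l1 was still higher at the tip than at the bottom (1.60), as was Scarb1 (1.90), and Abcg8 (-1.19) and Sqle (-1.84) were still lower.

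Between segments each level rests on 1 library, so no test was made and the intervals cover counting error only. Segment and library cannot be told apart. A gene was called past 2-fold where its mean level was at least 0.1 UMIs per 10000 and the ratio of levels over all 12672 absorptive cells (enterocytes with early enterocytes) exceeded 2.

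Hmgcs1 and Sqle were high in the ileum. Hmgcs1 was 3.28 UMIs per 10000 (95% interval 3.23 to 3.34) in the ileum, against 0.771 (0.747 to 0.796) in the duodenum and 0.700 (0.677 to 0.723) in the jejunum. The ileum was 4.69-fold (4.53 to 4.87) above the jejunum and 4.26-fold (4.11 to 4.41) above the duodenum. Sqle was 0.0947, 0.153 and 1.14 from duodenum to ileum, so the ileum was 7.45-fold (6.91 to 8.03) above the jejunum and 12.0-fold (10.9 to 13.2) above the duodenum. Both genes were higher in the ileum than in either other segment in 5 of 5 villus zones. The ileal enterocytes were shallower and held fewer mitochondrial UMIs (12.7% against 28.9 and 29.4%), and without mitochondrial UMIs the ileum was still above the jejunum, with log2 ratios of jejunum over ileum of -2.02 for Hmgcs1 and -2.69 for Sqle.

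**Figure D4:**
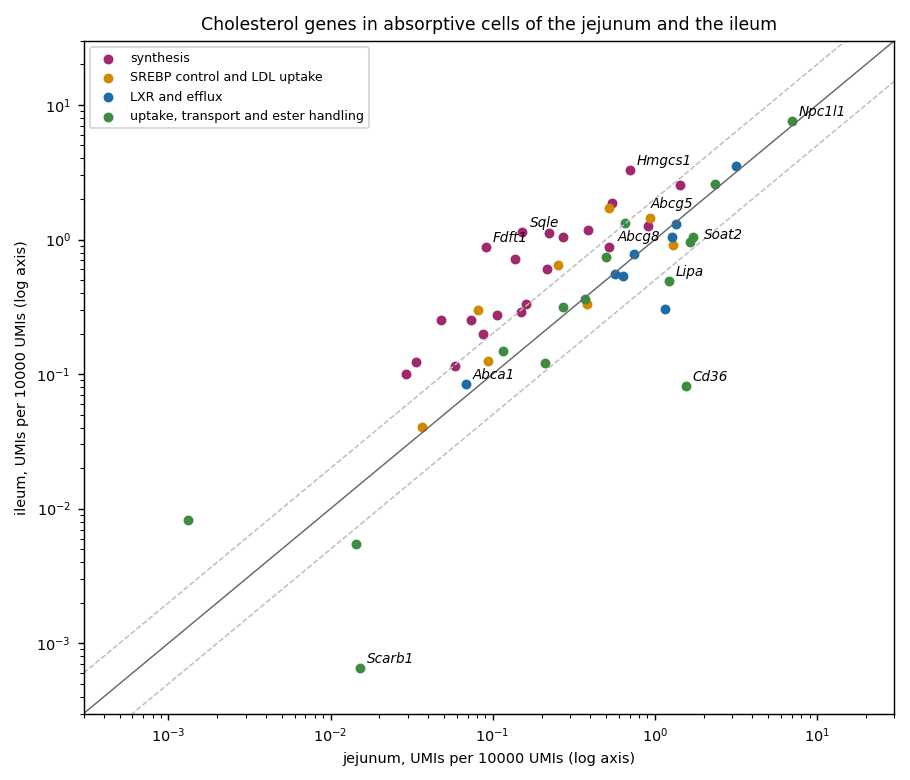
Level in jejunal absorptive cells against level in ileal ones (UMIs per 10000 UMIs, both axes log) for genes of the pathway lists, which include the 8 genes, 1 point per gene, with a solid line of equal levels and dashed lines at 2-fold. Hmgcs1 (0.700 and 3.28) and Sqle (0.153 and 1.14) lie on the ileal side with most other synthesis genes, and Scarb1 (0.0152 and 0.000655) lies far on the jejunal side.

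Scarb1 ran the other way. It was counted 1642 times in duodenal absorptive cells, 80 times in jejunal ones and 3 times in ileal ones, at levels of 0.329 (0.314 to 0.346), 0.0152 (0.0121 to 0.0189) and 0.000655 (0.000135 to 0.00191) UMIs per 10000. The duodenum was 21.7-fold (17.3 to 27.4) above the jejunum and 503-fold (172 to 2442) above the ileum, and the jejunum was 23.2-fold (7.67 to 115) above the ileum. The ileal value rests on 3 UMIs, which is why its ratios have such wide intervals. The EECs of the same ileal library had 26 Scarb1 UMIs in 93 cells.

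The other genes differed less between segments. Npc1l1 was 4.21, 6.98 and 7.55 UMIs per 10000 in the duodenum, jejunum and ileum. Jejunum and ileum changed places when mitochondrial UMIs were left out of the total, at 9.43 and 8.82, so their order is not settled. Abcg5 was 2.28, 1.35 and 1.30 and Abcg8 1.88, 1.28 and 1.04, so the duodenum was highest for both, also in 5 of 5 zones, by 1.76-fold and 1.82-fold over the ileum. Soat2 was highest in the jejunum, at 1.71 against 0.744 and 1.04, and in 5 of 5 zones. The jejunum was 2.30-fold (2.21 to 2.39) above the duodenum for Soat2. Abca1 was 0.0451, 0.0683 and 0.0844, below the level set for a call.

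Of the 8 genes, Scarb1 was past 2-fold in the duodenum over the jejunum, where 5.12% of genes were, and Soat2 in the jejunum over the duodenum, where 3.91% were. None of the 8 at level was past 2-fold in the jejunum over the ileum (3.68% of genes), and Hmgcs1 and Sqle were past it in the ileum over the jejunum (7.4%). Scarb1 was past it in the duodenum over the ileum (8.37%), and Hmgcs1 and Sqle in the ileum over the duodenum (9.99%). With mitochondrial UMIs left out, Abcg5 and Abcg8 also passed 2-fold in the duodenum over the ileum, with log2 ratios of 1.03 and 1.08. Npc1l1 passed it in the ileum over the duodenum in 3 of 10 alternatives, with log2 ratios of duodenum over ileum of -1.10 with no integration, -1.13 with at most 20% mitochondrial UMIs and -1.02 with cells of 5000 to 20000 UMIs.

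The synthesis list of 21 genes, which holds Hmgcs1 and Sqle, was counted between segments in the same way. Between jejunum and ileum 14 of the 18 synthesis genes at level were past 2-fold higher in the ileum and 0 in the jejunum, beside 7.4% and 3.68% of all genes, with a median log2 ratio of -1.70 for jejunum over ileum. Against the duodenum it was 14 of 19, with a median of -1.69, and between duodenum and jejunum 1 of 14. Fdft1, squalene synthase, was 0.0905 in the jejunum and 0.876 UMIs per 10000 in the ileum, and Cyp51, the lanosterol demethylase, 0.223 and 1.11. Of the list of SREBP control and LDL uptake 5 of 9 genes at level were past 2-fold higher in the ileum than in the jejunum. Among them Mylip, a ubiquitin ligase induced by LXR, was 0.301 in the ileum, 0.0816 in the jejunum and 0.00361 in the duodenum. The lists of LXR and efflux, and of uptake, transport and ester handling, had 0 of 7 and 1 of 12 in that direction, and 1 of 7 and 2 of 12 in the other.

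Along the villus 14 of the 21 synthesis genes were lower at the tip than at the bottom and 3 were higher, with a median log2 fold change of -0.85 where all genes had -0.08 and 37.0% of them were lower. Those with the largest falls among the lists included Lss, which closes the sterol rings (0.136 UMIs per 10000 at the bottom and 0.0122 at the tip, log2 -2.83, SE 0.30), Dhcr7, the last reductase (0.413 and 0.0472, log2 -2.57, SE 0.25), and Lbr, also a sterol reductase and a protein of the nuclear envelope (log2 -2.54, SE 0.35). Soat1, the ester-forming enzyme of most other tissues, fell from 0.0652 to 0.00407 (log2 -2.90, SE 0.77). On SREBP control and LDL uptake 3 of 10 genes were higher and 5 lower, near the shares of all genes (33.5% and 37.0%).

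**Figure D5:**
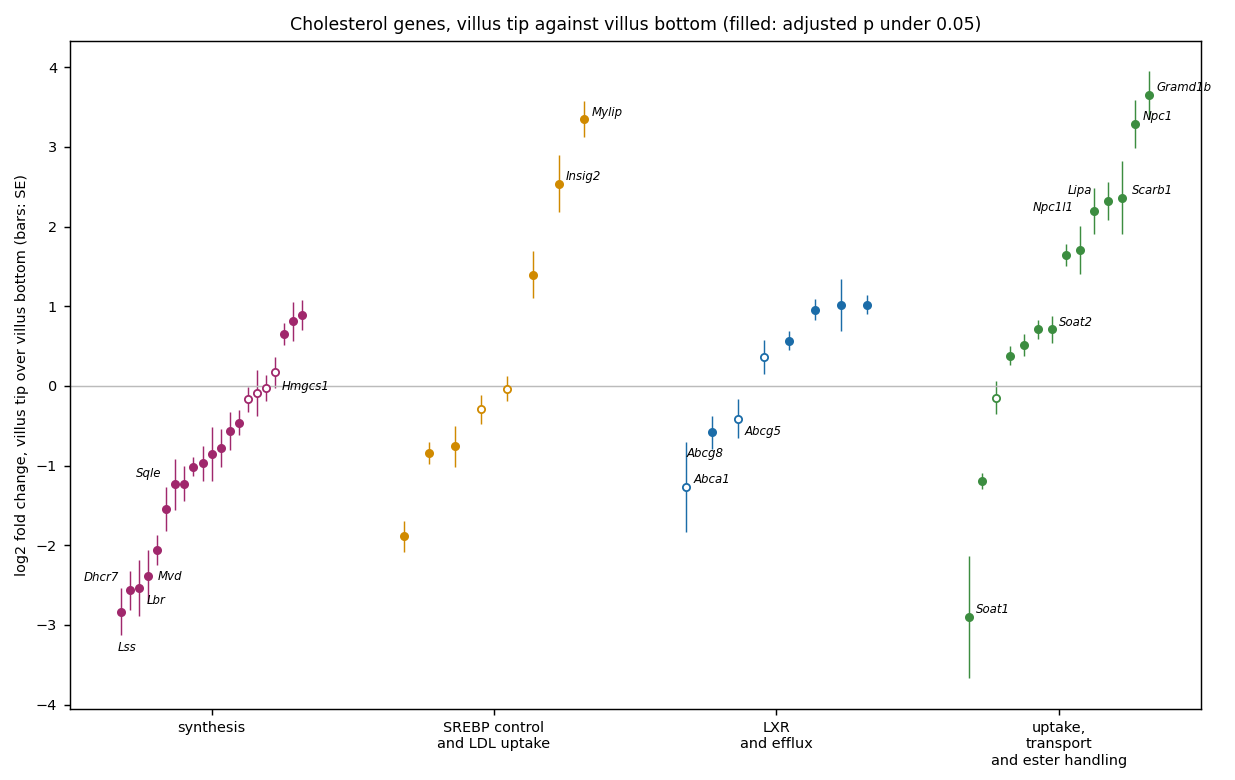
Log2 fold change of pathway genes between villus tip and villus bottom, grouped by list along the horizontal axis, with bars of 1 SE and filled points for an adjusted p under 0.05. The synthesis list lies mostly below 0 (median -0.85) and the list of uptake, transport and ester handling mostly above it (median 1.18).

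Of 14 tested genes of uptake, transport and ester handling, 11 were higher at the tip and 2 lower, with a median of 1.18, where 33.5% of all genes were higher and 37.0% lower. Gramd1b, which carries sterol from the plasma membrane to the endoplasmic reticulum, went from 0.244 to 2.32 UMIs per 10000 (log2 3.65, SE 0.30, adjusted p = 4.65e-07), and Npc1, which lets cholesterol out of lysosomes, from 0.227 to 1.79 (log2 3.29, SE 0.30). Lipa, the lysosomal ester hydrolase, went from 0.485 to 1.38 (log2 2.32, SE 0.24). Mylip went from 0.0355 to 0.249 (log2 3.35, SE 0.23), and Insig2, which holds back SREBP processing, from 0.368 to 1.96 (log2 2.54, SE 0.36). On LXR and efflux 4 of 8 were higher and 1 lower, against the same shares of all genes.

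Between enterocytes and ISC/proliferating cells the lists of LXR and efflux (8 of 9 higher, 0 lower, median 2.50) and of uptake, transport and ester handling (10 of 15 higher, 3 lower, median 1.71) lay above the median of all genes (0.07), while the synthesis list lay close to it (6 of 21 higher, 3 lower, median 0.08). SREBP control and LDL uptake had 4 of 10 higher and 2 lower, beside 31.0% and 30.7% of all genes. Cd36, a fatty acid and lipoprotein receptor, had the largest rise (log2 5.06, SE 0.85), from 0.0267 to 0.815 UMIs per 10000, before Lipa (4.86, SE 0.45), Gramd1b (4.33, SE 0.42), Gramd1c (3.43, SE 0.51), a sterol carrier like it, and Npc1 (2.93, SE 0.36). Cd36 was higher in enterocytes in 3 of 3 libraries, though its level in absorptive cells was 0.413, 1.55 and 0.0816 from duodenum to ileum. Large falls were those of Lbr (-4.02, SE 0.35), Soat1 (-3.58, SE 0.60), Gramd1a (-3.16, SE 0.65) and Acat2 (-2.08, SE 0.32), the enzyme that makes acetoacetyl-CoA for HMGCS1. Soat1 was 0.552 UMIs per 10000 in the crypt class and 0.0321 in enterocytes, while Soat2 was 0.154 there and had its high level in enterocytes.

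Against tuft cells the synthesis list had 15 of 21 genes lower in enterocytes and 1 higher (median -1.29, all genes 0.14), where 21.6% of all genes were lower and 23.3% higher. Against goblet cells 9 were lower and 3 higher (median -0.79, all genes 0.13), beside 16.6% and 20.5% of all genes. Against early enterocytes 10 were lower and 1 higher (median -0.63, all genes 0.15), beside 17.9% and 19.7%. EECs gave 1 lower and 2 higher (median -0.18, all genes 0.05), beside 26.8% and 25.8%, and T cells 3 lower and 5 higher (median 0.30, all genes 0.11), beside 29.6% and 31.6%.

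Over the 15 sums of zone and segment, each gene was set beside the 3716 genes with a mean level of at least 0.3, by Pearson correlation of log2 levels. The sums share libraries and depth, so the correlations describe likeness only. Abcg5 and Abcg8 were each other's nearest gene (r = 0.98), followed by Ctsa (0.98) for Abcg5 and Gucy2c (0.98) for Abcg8. Npc1l1 was nearest to Apoa1 (0.98), the main apolipoprotein of HDL, which also served as an enterocyte marker, and to Atxn1 (0.96). Hmgcs1 was nearest to Fdft1 (r = 0.995) and Spint2 (0.98), and Sqle to Mgat4c (0.98) and Cyp51 (0.98). Scarb1 was nearest to Tmprss15 (0.99), the enteropeptidase of the duodenal brush border, and Akp3 (0.99), an intestinal alkaline phosphatase. Before the log, 0.05 was added to each level. Scarb1 lay below that in every jejunal and ileal sum (at most 0.0351), so its likeness rests mainly on the duodenum. Soat2 was nearest to Pck1 (0.96) and Scp2 (0.94), and Abca1 to Tifa (0.92) and Mapk13 (0.90). Abca1 levels, at 0.0112 to 0.162 in the jejunum, were also close to the added 0.05.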

How the data were processed

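RNA of single cells was sequenced in 1 library each from duodenum, jejunum and ileum, prepared with the 10x 3′ v3 chemistry. The authors aligned the reads to the mouse genome (mm10) and counted UMIs per gene and barcode with Cell Ranger 3.0.2. These raw counts were deposited without normalization. The limits of the study's methods were used to keep barcodes: a total of 800 to 50000 UMIs, between 200 and 6000 genes, and no more than 40% mitochondrial UMIs.

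Libraries were integrated with Seurat 5.3.0 in R 4.3.3 over 2000 variable genes, without Vil1, the 8 genes and the pathway lists, on 30 principal components at resolution 0.8. Of 23 clusters, 2 that mixed classes were split once more at resolution 0.5, which gave 30. A cluster took the list with most markers (at least 2) among its 10 leading genes, or else the list with the highest mean relative level. It stayed unnamed with fewer than 3 markers found in at least 10% of its cells, with more leading genes of another list, or where its cells were much shallower than their library with no marker of its own in front. This naming rule was chosen after the clusters were seen. The 3 clusters of 1279 cells led by Gm26917, by Fbp1 with Fth1, and by Ubd counted as enterocytes. Scrublet (scanpy 1.11.5) marked 0, 2 and 171 cells in duodenum, jejunum and ileum, so it did not work in the first 2 libraries, and its calls were removed only as an alternative.

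Levels are UMIs per 10000 with exact Poisson intervals, and shares carry exact binomial ones, at 95% and for counting error only. Classes and zones were compared with edgeR 4.0.16 on UMIs summed per library (at least 10 cells in a sum), with filterByExpr, TMM, the library as a block, the quasi-likelihood test and Benjamini-Hochberg adjustment over all genes tested at 0.05. A class or zone has 1 sum per segment, all from the same pooled mice. The p-values thus measure only how differences between classes or zones vary over these 3 libraries. That spread was estimated over all classes or all zones together. All 8 genes passed the filter. SEs are the absolute log2 fold change over the square root of F. Zones came from the mean z scores of the landmarks within each library. The script was tested on simulated data. Other values came from Python 3.11.15 with numpy 2.4.6, pandas 2.3.3, scipy 1.17.1 and matplotlib 3.10.9.

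Alternatives were resolutions 0.4 and 1.2, no integration, at most 20% mitochondrial UMIs, doublets removed, DESeq2 1.42.0, no TMM, no filter, no block, sums of at least 3 cells, each library left out, mitochondrial UMIs left out, the 10% of other cells with most enterocyte marker UMIs left out, enterocytes only, zones without Apoa4 or by the share of tip landmark UMIs, and the mean of the 5 zones. Leaving out the clusters of the 1279 cells, and keeping only cells of 5000 to 20000 UMIs, were chosen after seeing the data. All 8 genes were tested in each comparison of classes or zones, but differences that did not pass are not all printed. Up to 5 list genes per direction of the largest change are named for tip against bottom and for enterocytes against ISC/proliferating cells. Also named are the 2 nearest genes of each by correlation (pseudocount 0.05), and examples from the lists between segments that were chosen after their values were seen. Values of 2 genes of the list of SREBP control and LDL uptake are not reported here, although the counts and medians of that list include them. The genes, lists and tests were chosen with earlier results of these data known.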

Additional observations from a re-analysis of the deposited data

Results flagged for a closer look

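Each value here is a log2 ratio of levels on total UMIs within 1 library whose 95% counting interval lay on the opposite side of 0 from that of another segment. The differences between segments were not tested.

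Among absorptive and crypt classes, Abca1 of enterocytes over early enterocytes was 1.60 in the duodenum and -1.28 in the jejunum. Hmgcs1 of enterocytes over ISC/proliferating cells was -0.88, -0.72 and 1.60 from duodenum to ileum, and Sqle was -2.16, -1.58 and 1.36 in the same order. Scarb1 of enterocytes over tuft cells was 1.70 in the duodenum and -1.96 in the jejunum. Over T cells, Scarb1 was 1.86 in the duodenum and -5.18 in the ileum, Hmgcs1 was 1.51 in the ileum and -1.18 in the jejunum, and Sqle was 1.09 in the ileum and -2.27 in the jejunum.

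Along the villus, Soat2 at the tip over the bottom was 0.54 in the duodenum and -0.27 in the jejunum, and at the tip over the middle it was 0.23, -0.59 and -0.91 from duodenum to ileum. Abca1 in the middle over the bottom was 0.82 in the duodenum and -2.29 in the jejunum. Scarb1 at the tip over the middle was 0.55 in the duodenum and -2.13 in the jejunum. Hmgcs1 at the tip over the middle was 0.42 in the duodenum and -0.19 in the ileum, and Sqle was 0.69 in the duodenum and -0.94 in the ileum.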

How the results depend on the processing

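The number of the 8 genes called kept within 1.5 times its value in 142 of 156 alternatives of the tested comparisons. Against early enterocytes (3 called) it was 5 when low genes were kept and 1 without the library block. Against tuft cells (7) the fits without 1 library gave 4 to 6, lowest without the duodenum. For the tip against the bottom (5) it was 1 without the block and 3 to 6 without 1 library, lowest without the jejunum. For the middle against the bottom (6) it was 3 with no integration, 3 with cells of 5000 to 20000 UMIs, 3 with enterocytes only and 0 without the block, and for the tip against the middle (4) it was 2 with cells of 5000 to 20000 UMIs, 2 with no TMM, 2 with zones by the share of tip landmark UMIs, 0 without the block and 2 to 4 without 1 library, lowest without the duodenum. With mitochondrial UMIs left out, 5 genes in place of 3 were past 2-fold between duodenum and ileum. The cause of these changes was not tested. Where edgeR without the block called 0 genes, 1 and 2 of the 8 had an unadjusted p under 0.05 for the middle against the bottom and the tip against the middle, and DESeq2 with the block called 6 and 4.

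Of 1248 log2 fold changes of single genes under an alternative, 1099 kept their call, 110 lost it, 34 gained it and 5 turned, where a sign change with no call in either fit counts as kept. Those that turned did so without the ileum, where the fits without 1 library ran from -0.18 to 1.56 for Hmgcs1 and from -1.15 to 1.36 for Sqle against ISC/proliferating cells, and from -0.037 to 1.87 for Hmgcs1 and from -1.47 to 1.34 for Sqle against T cells, or were Abcg8 in the middle against the bottom with enterocytes only, at -0.00413. Of 240 segment ratios 161 moved by less than their counting interval.

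Over all genes, the calls against early enterocytes were 2870 without the jejunum in place of 4842. For the middle against the bottom (5240) they were 3483 with cells of 5000 to 20000 UMIs, 1407 without the block, 2418 without the jejunum and 2409 with enterocytes only. For the tip against the middle (4871) they were 3088, 733 without the block and 2343 without the jejunum. No cluster met the terms for adding unnamed cells to the enterocytes, so that alternative was not run. No paired analysis beyond the library block was possible because each segment has 1 library. Scarb1 of ileal absorptive cells rests on 3 UMIs.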

Other observations

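CCAAT was more frequent in the promoter windows of the synthesis list than in all windows. It occurred on either strand in 15 of the 19 windows that RefSeq gave for 16 genes of the synthesis list (78.9%), among them Hmgcs1, Cyp51, Lss, Dhcr7 and Idi1, where 12289 of all 32851 windows held it (37.4%). The list of uptake, transport and ester handling had it in 11 of 13 windows, SREBP control and LDL uptake in 4 of 10 and LXR and efflux in 5 of 13. The windows of 1 gene share sequence, and no test was made. Among the 8 genes CCAAT was in windows of Abcg5, Abcg8, Hmgcs1 and Npc1l1 and in none of Abca1, and the sterol element TCACNCCAC was found in Hmgcs1 and, among the other list genes with a window, in Stard3.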
